A study of Eurytemora affinis with 18 samples.

Results

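The genes LOC111707610 and LOC111717003 of the copepod *Eurytemora affinis* are both annotated as heat shock 70 kDa protein 1-like, and are called the *hsp70* genes here. These 2 genes of the 23728 in the count table were followed in all 18 libraries. They were selected on their fold changes and adjusted p at 50 µg/L against controls, because the study placed both among the genes that changed at 50 µg/L of tebufenozide (TEB) in each sex, and these values are therefore given as a description, with no test. TEB is an insecticide that acts as an agonist of the ecdysone receptor. Adult males and adult females without eggs were kept for 72 h in water with acetone alone (controls) or with TEB at nominal concentrations of 0.5 or 50 µg/L in the same solvent. Acetone was thus present in all 6 groups, the copepods came from an estuary rather than from an inbred line, and no age beyond adult was stated. Measured TEB in the water of the higher dose lay well below nominal at the start and the end of exposure. Doses are named by their nominal concentration throughout. Each group had 3 replicates, and each replicate was a pool of 30 whole copepods of one sex, so a value belongs to a whole body and to no single tissue. In such pools, fewer cells of a type and less RNA per cell cannot be told apart.

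HSP70 proteins are chaperones that bind stretches of unfolded protein and release them in a cycle driven by ATP. J-domain proteins (also called dnaJ or HSP40) bring clients and start ATP breakdown, nucleotide exchange factors reopen the cycle, HSP90 proteins take over a part of the clients, and small heat shock proteins hold unfolded proteins until HSP70 can act. In animals, some HSP70 genes are expressed at all times, whereas others are induced by heat, metals, organic pollutants and other conditions that unfold proteins. Inducible *hsp70* transcripts are for that reason widely used as markers of stress in crustaceans. No sequence, transcript length or position of the genes was used here, so a difference in CPM or counts between 2 genes is not corrected for their length, and levels are compared between groups of libraries within a gene.

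The summed counts per library ranged from 7983412 to 17114866 in the 9 female libraries and from 3882407 to 10468479 in the 9 male libraries. Levels are given as CPM, the counts per library brought to a common total and scaled by the trimmed mean of M-values (TMM) over the 18 libraries, so that 1 read was worth 0.0524 to 0.116 CPM in females and 0.0981 to 0.295 CPM in males. The study used both a Mid Output flow cell with reads of 150 bp, for 7 libraries (every 50 µg/L library plus the third 0.5 µg/L replicate of females), and a High Output one with reads of 75 bp, for the other 11. In both sexes the difference between 50 µg/L and controls therefore cannot be told apart from that of flow cell and read length, except through the single female library. Over 203 genes that were high in females and nearly absent from at least 1 male library, replicates 2 and 3 of the male controls and of the males at 0.5 µg/L stood at a median of 22 to 46.6% of the female level, with 0 of the 203 at 0 counts. The other 5 male libraries stood at 0.106 to 0.339%, with 48 to 81 of these genes at 0 counts. Replicates 2 and 3 of the males at 0 and 0.5 µg/L are called the 4 male libraries below, and results are also given without them where stated. Exposure was run in replicate vessels, but which vessel each pool came from is not stated, so p-values measure the spread between these pools.

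The level of LOC111707610 in female controls was 6.34, 7.46 and 6.13 CPM in replicates 1, 2 and 3, from 121, 104 and 96 counts. In females at 0.5 µg/L it was 8.63, 6.03 and 8.47 CPM (153, 96 and 94 counts), and in females at 50 µg/L it was 35.6, 14.7 and 21 CPM (329, 156 and 181 counts). The female control and 0.5 µg/L libraries thus lay close together and overlapped, whereas all female libraries at 50 µg/L lay above them. In male controls the gene was at 17, 27.3 and 12.9 CPM (114, 278 and 120 counts). In males at 0.5 µg/L it was at 33.6, 16.1 and 8.1 CPM (208, 123 and 66 counts), and in males at 50 µg/L at 151, 168 and 68.3 CPM (648, 568 and 505 counts). The males at 0.5 µg/L spread over a wider range than the male controls and enclosed them, and each male library at 50 µg/L was above every other library of the study. Within the males at 50 µg/L, replicate 3 was the lowest and had the most counts in total.

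The level of LOC111717003 in female controls was 6.81, 6.67 and 5.5 CPM, from 130, 93 and 86 counts. In females at 0.5 µg/L it was 9.76, 4.78 and 5.68 CPM (173, 76 and 63 counts), and in females at 50 µg/L it was 23, 11.6 and 14 CPM (213, 124 and 121 counts). Its female libraries fell in the same order by group as those of LOC111707610, with overlap between controls and 0.5 µg/L and with 50 µg/L above both. In male controls the gene was at 11.8, 27.1 and 16.3 CPM (79, 276 and 151 counts). In males at 0.5 µg/L it was at 29.2, 8.51 and 14 CPM (181, 65 and 114 counts), and in males at 50 µg/L at 128, 114 and 58.3 CPM (548, 387 and 431 counts). Here too the 3 male libraries at 50 µg/L were the highest of the 18, replicate 3 was the lowest of them, and replicate 1 was the highest of the males at 0.5 µg/L. The plot of both genes by library shows these values.

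**Figure D1:**
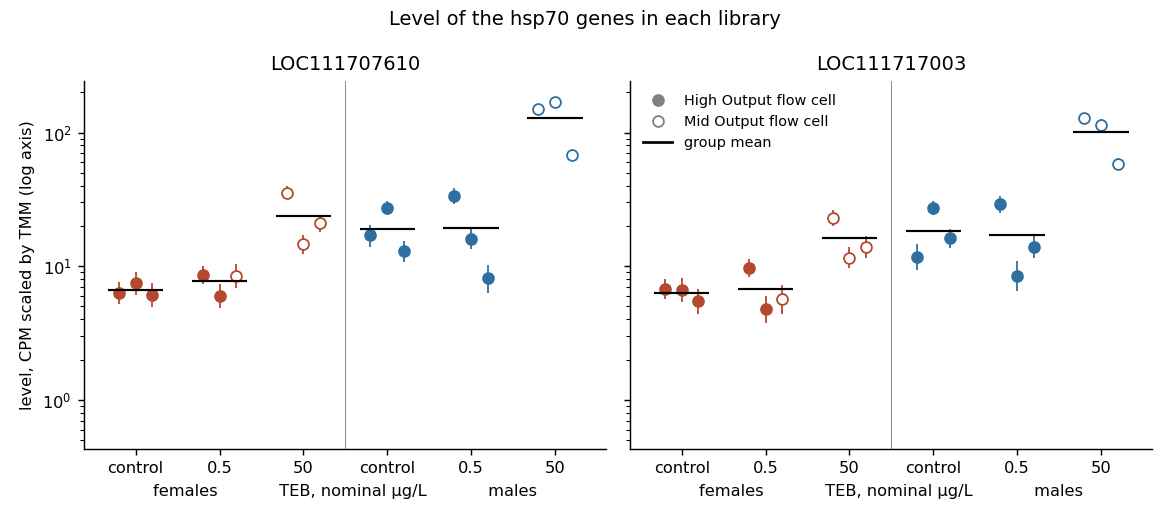
Level of LOC111707610 (left) and LOC111717003 (right) in each of the 18 libraries, in CPM scaled by TMM on a log axis, by sex and nominal TEB concentration. Points are replicates 1, 2 and 3 from left to right, thin bars are exact 95% Poisson intervals of the counts, black lines are group means, and open points mark the Mid Output flow cell. Each library at 50 µg/L lies above all controls of their sex, and the males at 50 µg/L lie highest, from 58.3 to 168 CPM.

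As an example of the depth behind these values, the 114 counts of LOC111707610 in male control replicate 1 gave an exact 95% Poisson interval of 14 to 20.4 CPM, and replicates 2 and 3 of the group lay outside it. Intervals of this kind cover counting error alone.

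Ordered by the mean level of LOC111707610, males at 50 µg/L (129 ± 53.2 CPM, SD, n = 3) came first and did not overlap with females at 50 µg/L (23.7 ± 10.7), the next group. Females at 50 µg/L overlapped with males at 0.5 µg/L (19.3 ± 13), and these with male controls (19.1 ± 7.39). Male controls did not overlap with females at 0.5 µg/L (7.71 ± 1.46), which overlapped with female controls (6.65 ± 0.716). The ranges of females at 50 µg/L and of male controls overlapped as well. For LOC111717003, males at 50 µg/L (100 ± 36.8 CPM) came first and stood apart from male controls (18.4 ± 7.86). Male controls, males at 0.5 µg/L (17.2 ± 10.7) and females at 50 µg/L (16.2 ± 6) overlapped one with the next. Females at 0.5 µg/L (6.74 ± 2.66) lay below females at 50 µg/L and overlapped with female controls (6.33 ± 0.724).

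At 50 µg/L both *hsp70* genes were higher than in controls in both sexes, which is how they were chosen. In females, LOC111707610 was 3.68-fold higher than in controls (log2 fold change 1.88, standard error 0.29, 95% interval 1.24 to 2.52) and LOC111717003 2.64-fold higher (log2 fold change 1.4, standard error 0.31, interval 0.73 to 2.08). In males, LOC111707610 was 6.77-fold higher (log2 fold change 2.76, standard error 0.52, interval 1.62 to 3.9) and LOC111717003 5.45-fold higher (log2 fold change 2.45, standard error 0.47, interval 1.43 to 3.46). The lowest library at 50 µg/L exceeded the highest control of its sex by 1.97-fold and 1.7-fold in females, and by 2.5-fold and 2.15-fold in males, for LOC111707610 and LOC111717003 respectively. Of all genes, 5.15% in females and 15.5% in males had all libraries at 50 µg/L above all controls, and nothing is read from the place of the *hsp70* genes among them. By log2 fold change the 2 genes ranked 28th and 61st of 15555 genes in females and 52nd and 93rd of 17492 in males. A high rank was built in by their choice on these values, and nothing is read from it.

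The flow cell moved together with this comparison. When the model of the 18 libraries had a term for flow cell, log2 fold changes at 50 µg/L were 1.63 (standard error 0.86) and 1.71 (0.83) in females and 2.54 (0.88) and 2.79 (0.85) in males, in the order LOC111707610 and LOC111717003. The only library read on the Mid Output flow cell below 50 µg/L, replicate 3 of the females at 0.5 µg/L, had 8.47 CPM of LOC111707610 and 5.68 CPM of LOC111717003, each between the other 2 replicates of its group. With the 4 male libraries left out, which leaves a single male control, male log2 fold changes at 50 µg/L were 2.87 and 3.04.

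Against 0.5 µg/L in place of controls, the values at 50 µg/L were again higher in every library, as they were for 3.82% of all genes in females and 14.6% in males. In females the log2 fold changes were 1.64 (standard error 0.29) for LOC111707610 and 1.28 (0.31) for LOC111717003, and in males 2.75 (0.52) and 2.54 (0.47). The narrowest gap was that of LOC111717003 in females, where the lowest library at 50 µg/L was 1.19-fold above the highest at 0.5 µg/L. Among males, replicate 1 at 0.5 µg/L lay nearest to the higher dose for both genes. Without it the difference between 50 and 0.5 µg/L went from 6.71-fold to 10.8-fold for LOC111707610 and from 5.82-fold to 9.03-fold for LOC111717003, and without the 4 male libraries it was a log2 fold change of 1.88 and 1.71. These comparisons share the libraries at 50 µg/L with the choice of the genes and were not tested.

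At nominal 0.5 µg/L, where TEB in the water was below the quantification limit, neither *hsp70* gene differed from controls beyond the spread between pools. The libraries at 0.5 µg/L had no part in the choice of the genes, although the controls did. In females, the log2 fold change of LOC111707610 was 0.24 (standard error 0.29, 95% interval -0.4 to 0.87) and that of LOC111717003 was 0.12 (0.31, interval -0.56 to 0.79), both with an adjusted p of 1 by edgeR's quasi-likelihood test with Benjamini-Hochberg adjustment over 15555 genes. In males, the log2 fold change of LOC111707610 was 0.01 (0.5, interval -1.08 to 1.1, adjusted p = 1) and that of LOC111717003 was -0.1 (0.45, interval -1.08 to 0.89, adjusted p = 0.98) in the same test over 17492 genes. In males these intervals extended just past a 2-fold change, and in females they did not reach it. At this dose 0% of all genes passed in either sex, that is, reached an adjusted p of 0.05 or less together with a change of 2-fold or more. At an unadjusted p under 0.05 there were 468 genes in females and 693 in males, and DESeq2 called 7 and 3 genes, the likelihood ratio test of edgeR 5 and 7.

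The sign of the male values at 0.5 µg/L turned with the libraries used. With single libraries left out, LOC111707610 ranged from -0.68 (without male 0.5 µg/L replicate 1) to 0.39 and LOC111717003 from -0.73 to 0.24. Without the 4 male libraries, which leaves 1 control and 1 exposed library that are assumed to vary like the other groups, the values were 1 (adjusted p = 0.9) and 1.33 (adjusted p = 0.67). The difference between the sexes in the change at 0.5 µg/L, females minus males, was 0.21 (standard error 0.63, interval -1.12 to 1.55) for LOC111707610 and 0.2 (0.61, interval -1.07 to 1.48) for LOC111717003, each with an adjusted p of 0.97 by the quasi-likelihood test over 18110 genes. Of all genes 0% passed that test, with 1170 genes at an unadjusted p under 0.05, 38 genes called by DESeq2 and 40 by the likelihood ratio test. Without the 4 male libraries both differences turned negative, at -0.73 and -1.18 (adjusted p = 0.81 and 0.65).

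Females had less of both *hsp70* transcripts than males. In controls, the log2 fold change of females against males was -1.52 for LOC111707610 (standard error 0.46, 95% interval -2.48 to -0.57, adjusted p = 0.0086, quasi-likelihood test in edgeR), which is 0.348 times the male level. For LOC111717003 it was -1.54 (0.43, interval -2.46 to -0.63, adjusted p = 0.0059), or 0.343 times the male level. All 3 female controls were below all 3 male controls for each gene. Of the 18110 genes tested, 34.5% passed the same test as lower in females and 37.2% had female controls below all male controls, so that the 2 genes shared their direction and call with about 1 in 3 genes measured. The median log2 fold change of all genes was -0.28, and with library totals in place of TMM it was -0.08, a shift of 0.2. Under that scaling the *hsp70* values were -1.34 and -1.38, and 35.5% of the called genes were higher in females, against 25.1% with TMM.

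At 0.5 µg/L the same difference was -1.31 (standard error 0.45, interval -2.27 to -0.35, adjusted p = 0.015) for LOC111707610 and -1.34 (0.44, interval -2.26 to -0.43, adjusted p = 0.01) for LOC111717003, beside 40.8% of all genes called lower in females and a median of -0.54. The female and male libraries overlapped at this dose for each gene. At 50 µg/L it was -2.44 (standard error 0.46) and -2.62 (0.44), given without a test because these libraries chose the genes. The plot of all comparisons with their intervals shows the values side by side.

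Single libraries bore on the difference between the sexes. Without replicate 2 of the male controls, the highest of them, the value of LOC111707610 in controls was -1.14 and no longer passed (adjusted p just above the threshold, 0.05 when rounded), and that of LOC111717003 was -1.13 (adjusted p = 0.041). Without replicate 1 of the males at 0.5 µg/L the values at that dose were -0.62 (adjusted p = 0.21) and -0.7 (adjusted p = 0.14). Without replicate 2 of the females at 0.5 µg/L they were -1.15 (adjusted p = 0.062) and -1.13 (adjusted p = 0.051). Over every alternative tried, adjusted p ranged from 0.0026 to 0.05 and from 0.0016 to 0.11 in controls, and from 0.0013 to 0.21 and from 0.00053 to 0.14 at 0.5 µg/L.

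Without the 4 male libraries, LOC111707610 remained lower in female controls at -1.35 (adjusted p = 0.027), and LOC111717003 no longer passed at -0.89 (adjusted p = 0.11). At 0.5 µg/L both were then further apart, at -2.08 (adjusted p = 0.0013) and -2.07 (adjusted p = 0.00053). In each of these fits the male side was a single library.

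**Figure D2:**
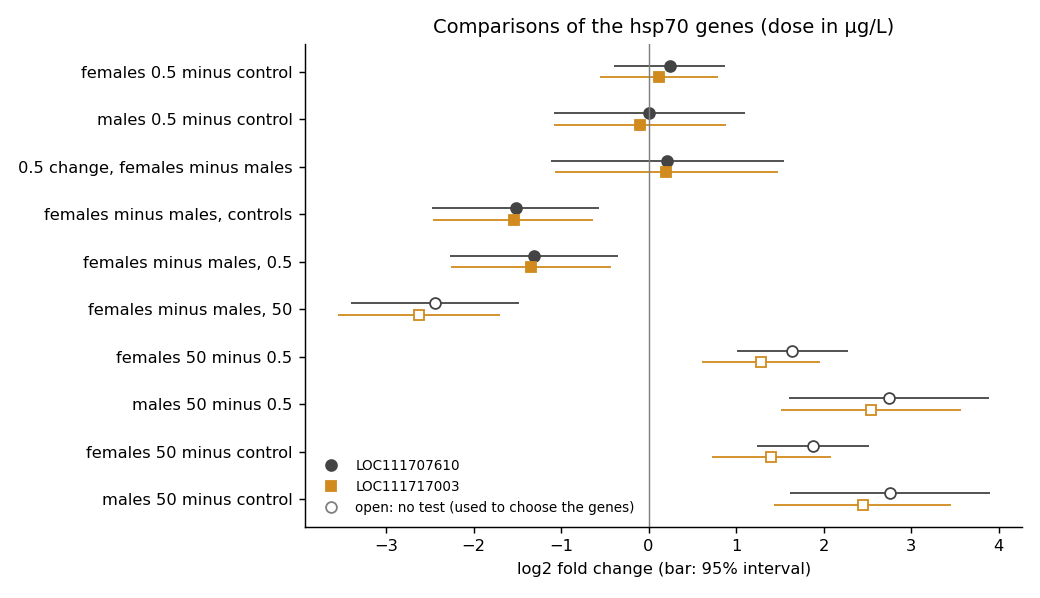
Log2 fold changes (x axis) of LOC111707610 (circles) and LOC111717003 (squares) in 10 comparisons, with 95% intervals as bars. Filled marks were tested, and open marks use the libraries at 50 µg/L that chose the genes and carry no test. The values at 0.5 µg/L against controls lie within 0.24 of 0, the differences in level between the sexes lie below 0, and the values at 50 µg/L against lower doses lie between 1.28 and 2.76.

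The ratio of the 2 transcripts was also compared, since both carry the same name and reads from near-identical copies could be split or lost in counting. The treatment of reads that match several genes was not stated, so the division of counts between genes of this name is uncertain. The counts of LOC111717003 were 0.963 times those of LOC111707610 in female controls (0.894 to 1.07 over the 3 libraries) and 0.988 times in male controls (0.693 to 1.26). At 50 µg/L the ratio was 0.688 in females (0.647 to 0.795) and 0.794 in males (0.681 to 0.853). At 50 µg/L all 6 libraries thus had fewer counts of LOC111717003 than of LOC111707610, and their range lay below that of the controls in females and overlapped with it in males. In females at 0.5 µg/L the ratio was 1.13 and 0.792 in replicates 1 and 2 and 0.67 in replicate 3, the library read on the Mid Output flow cell. That library lay within the range of the females at 50 µg/L, as did replicate 2, and the part of flow cell and read length in the ratio was not tested.

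The pair moved least evenly in males at 0.5 µg/L. There the ratio was 0.528 in replicate 2 (95% interval 0.385 to 0.719, exact binomial) and 1.73 in replicate 3 (1.26 to 2.38), so LOC111707610 was the more counted gene in one pool and LOC111717003 in another. As a description across libraries, the log2 levels of both genes had a Pearson r of 0.954 over the 9 female libraries and 0.948 over the 9 male libraries. Without the 50 µg/L libraries, r was 0.626 in females and 0.644 in males over 6 libraries each. The 6 male libraries share a flow cell, and of the 6 female libraries replicate 3 at 0.5 µg/L was on the other one.

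In all, 5 genes carried the name heat shock 70 kDa protein 1-like among the genes that the study lists by name, the pair above and LOC111717007, LOC111711805 and LOC111704938. All of them were in the study's lists for males at 50 µg/L, so their direction there is not independent evidence. Their summed level in controls was 17, 19.3 and 19.5 CPM in females and 41.9, 71.6 and 37.6 CPM in males. At 0.5 µg/L it was 26, 16.5 and 20.1 CPM in females and 82.5, 33.5 and 27.9 CPM in males, and at 50 µg/L it was 73.9, 33.4 and 46.3 CPM in females and 373, 377 and 168 CPM in males. The sum followed the pair, with 50 µg/L above the rest in each sex, and the pair held 59.7 to 79.3% of the counts of the 5 genes in a library. A shift of reads among the 5 genes alone leaves this sum as it is. Reads lost in counting, or shared with copies outside the 5, would change it, and the part of read length in the sum was not tested.

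LOC111717007 had 4.92, 6.48 and 1.94 CPM in male controls and 45.8, 56.4 and 20.4 CPM in males at 50 µg/L, with a log2 value of 3.2 for the change (standard error 0.73, adjusted p = 0.062 by the quasi-likelihood test). In females it had 1.47, 2.44 and 2.68 CPM in controls and 8, 3.95 and 4.98 CPM at 50 µg/L, and the change was 1.4 on the log2 scale (0.37, adjusted p = 0.19). The libraries at 50 µg/L did not overlap with controls in either sex, and the adjusted p missed the threshold in both. Without the 4 male libraries, which leaves a single male control, the male value was 2.99. LOC111711805 had 5.52, 8.64 and 3.88 CPM in male controls and 37, 23.6 and 12.6 CPM at 50 µg/L (log2 fold change 2.02, standard error 0.49, adjusted p = 0.062, and a value of 2.08 without the 4 male libraries). In females it was at 1.94, 1.87 and 2.68 CPM in controls and 5.4, 2.25 and 4.98 CPM at 50 µg/L, where the groups overlapped (log2 fold change 1, standard error 0.42, adjusted p = 0.36). This was also the only other gene of the name called lower in females than in males among controls (log2 fold change -1.47, standard error 0.48, adjusted p = 0.013), a call that was lost without replicate 2 of the male controls (-1.09, adjusted p = 0.076) and without the 4 male libraries (-1.34, adjusted p = 0.056).

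LOC111704938 had few counts, with 2.69, 2.16 and 2.59 CPM in male controls and 11.4, 14.8 and 7.98 CPM in males at 50 µg/L (log2 fold change 2.19, standard error 0.47, adjusted p = 0.053, and a value of 2.01 without the 4 male libraries). In females its counts were 8, 12 and 39 in controls and 18, 10 and 12 at 50 µg/L, and their log2 fold change stood at 0.22 (standard error 0.62, adjusted p = 0.91), with a sign that turned when control replicate 1 or exposed replicate 1 was left out. The 95% interval in females, -1.12 to 1.57, included the value of LOC111717003 (1.4), and the difference from the *hsp70* pair was not tested. The plot of the 5 genes relative to controls shows the same spread.

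**Figure D3:**
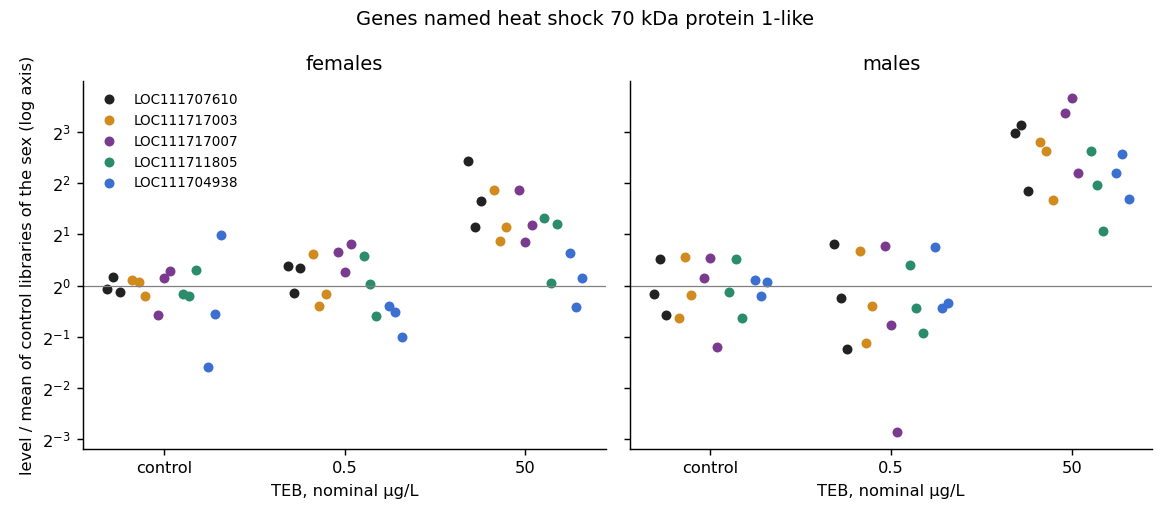
Level of the 5 genes named heat shock 70 kDa protein 1-like divided by the mean of the controls of the same sex (y axis, log scale in powers of 2), in females (left) and males (right), by nominal TEB concentration. Each point is 1 library, with replicates 1, 2 and 3 from left to right. In males at 50 µg/L all 15 points lie above the control mean, and in females LOC111704938 lies around it.

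Other chaperones were taken from the study's lists of changed genes by their names, as no annotation of all genes was used here. The search found 16 genes in 5 groups, of which 14 remain without the *hsp70* pair. The study chose 13 of these 14 for males and 1 for females, at 50 µg/L in each case, so their change at that dose is not independent evidence, and chaperones outside those lists are not covered. In males at 50 µg/L against controls, 1 of the 14 passed as higher and 0 as lower, beside 0.48% and 0.252% of all 17492 genes, with 13 of 14 at an unadjusted p under 0.05, as 27.2% of all genes were. By sign, 6 were higher and 8 lower, with a median log2 fold change of -1.14 against 0.02 over all genes. In females 0 of 14 passed in either direction, beside 0.00643% of all 15555 genes (the uncharacterized LOC111701273 alone, log2 fold change -1.19, standard error 0.14, adjusted p = 0.024, named after its value was seen), with 5 of 14 at an unadjusted p under 0.05 (12.5% of all genes), 2 called by DESeq2 and 1 by the likelihood ratio test. The median there was 0.2 against -0.01 over all genes.

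The number called in males depended on the fit. Without replicate 1 of the male controls 13 of the 14 passed, beside 4077 genes in all. Without replicate 2 or 3 of the controls or replicate 1 or 2 of the exposed males 0 of the 14 passed, beside 0 to 8 genes in all. Nothing is read from the number called without the 4 male libraries, as that fit leaves a single male control. With the likelihood ratio test 11 passed beside 1576 genes in all, and with DESeq2 13 beside 1975.

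The gene that passed was LOC111708726, heat shock protein beta-1-like, a small heat shock protein of the class that holds unfolded proteins until they can be refolded. It had 78.2, 79.7 and 53.1 CPM in male controls, 73.2, 60.8 and 66.4 CPM at 0.5 µg/L and 281, 268 and 125 CPM at 50 µg/L. The 3 libraries at 50 µg/L were above all others, with replicate 3 lowest as for the *hsp70* pair, and the change was 1.68 on the log2 scale (standard error 0.29, adjusted p = 0.03 in edgeR). This call was lost in 7 of 15 alternatives, among them the fits without the 4 male libraries (1.48, adjusted p = 0.34) and with flow cell as a covariate (2.04, adjusted p = 0.38), and those without control replicates 2 or 3 or exposed replicates 1 or 2 (adjusted p = 0.11 to 0.15). In females it had 11.1, 10.3 and 15.1 CPM in controls and 24, 15 and 29.2 CPM at 50 µg/L, which overlapped (log2 fold change 0.94, standard error 0.25, adjusted p = 0.19). Like the *hsp70* pair it was lower in female than in male controls (log2 fold change -2.53, standard error 0.3, adjusted p = 1.7e-06, and -2.68 with an adjusted p of 6.6e-05 without the 4 male libraries).

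Of the 6 chaperones with a positive value in males at 50 µg/L, 3 were the genes named above as heat shock 70 kDa protein 1-like, 2 were small heat shock proteins and 1 was a J-domain gene. LOC111712531, the other gene named heat shock protein beta-1-like, was at a log2 fold change of 1.99 in males (standard error 0.71, adjusted p = 0.11) and -0.77 (0.43, adjusted p = 0.49) in females. LOC111712541, dnaJ protein homolog 1-like, whose class of protein activates the ATPase of HSP70, had 3.88, 10.9 and 2.91 CPM in male controls and 22.3, 35.4 and 12 CPM at 50 µg/L (log2 fold change 1.97, standard error 0.54, adjusted p = 0.075). All 6 had male libraries at 50 µg/L above all controls, as 15.5% of all genes did. Their log2 fold changes ran from 1.68 to 3.2. Without the 4 male libraries, which leaves 1 male control, they ran from 1.43 to 2.99. With flow cell as a covariate they ran from 1.56 to 2.91, and that term rests on a single female library, as flow cell and dose coincide in males. These genes were grouped by their sign in this comparison, so the same sign in these fits is no independent evidence.

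The 8 chaperones with a negative value in males included both genes of the HSP90 group, both HSP70 cofactors, 3 J-domain genes and LOC111711631, annotated as heat shock 70 kDa protein-like. LOC111703750, endoplasmin-like, the HSP90 protein of the endoplasmic reticulum and the gene of its group with the highest mean CPM, had 255, 713 and 1080 CPM in male controls, 298, 720 and 733 CPM at 0.5 µg/L and 214, 210 and 218 CPM at 50 µg/L. Female libraries held 1530 to 1780 CPM of it. Its log2 fold change in males was -1.67 (standard error 0.45, adjusted p = 0.075), with control replicate 1 close to the exposed libraries and replicates 2 and 3 far above them. LOC111711631 showed the same split, with 6.42, 57.7 and 131 CPM in male controls, 6.75, 10.6 and 7.58 CPM in males at 50 µg/L and group means of 228 to 248 CPM in females (log2 fold change -2.98, standard error 1.29, adjusted p = 0.19).

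The cofactors were LOC111704830, hsp70-binding protein 1-like, whose class of protein in mammals acts as a nucleotide exchange factor, and LOC111705239, E3 ubiquitin-protein ligase CHIP-like, which in mammals marks clients of HSP70 for degradation. They had log2 fold changes of -1.16 (standard error 0.33, adjusted p = 0.078) and -1.15 (0.29, adjusted p = 0.066) in males, and 0.2 and -0.06 in females. LOC111706182, chaperone protein dnaJ 49-like and the J-domain gene with the highest mean CPM, had 0, 3016 and 4469 counts in male controls, 8, 2 and 4 counts in males at 50 µg/L and a mean of 1090 CPM in female controls. LOC111707609, heat shock protein 83-like, of the cytosolic HSP90 class, was the one list gene that the study had chosen in females. It had 16, 21.3 and 18.7 CPM in female controls and 4.97, 5.64 and 6.02 CPM at 50 µg/L (log2 fold change -1.7, standard error 0.42, adjusted p = 0.19). In the females at 0.5 µg/L it had 16.3 and 19.3 CPM in replicates 1 and 2 and 4.24 CPM in replicate 3, the library read on the Mid Output flow cell, and with flow cell as a covariate its value at 50 µg/L turned to 0.32 in females and 0.8 in males.

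**Figure D4:**
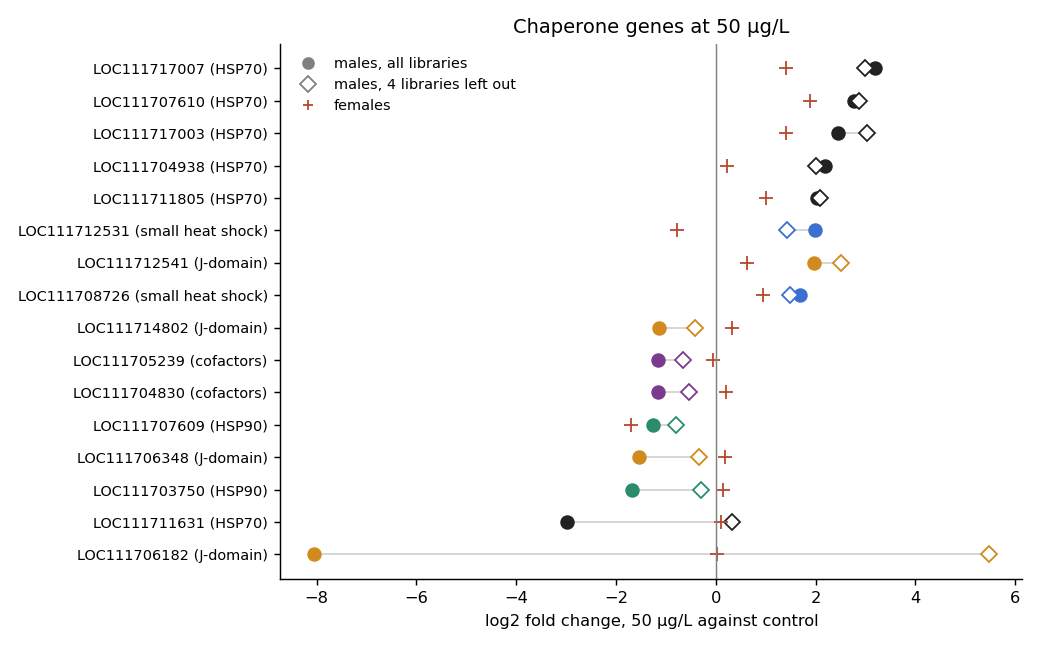
Log2 fold change at 50 µg/L against controls (x axis) of the 16 chaperone genes taken by name from the study's lists. Filled circles are males with all libraries, open diamonds are males without replicates 2 and 3 of the controls and of 0.5 µg/L, crosses are females, and colours mark the group in brackets. The 6 positive chaperones and the *hsp70* pair keep positive values in males in both fits, whereas the 8 negative ones move toward or past 0 without the 4 libraries. The pair was chosen and the others were sorted on this comparison, so this difference is in part built in. The fit without the 4 libraries leaves a single male control, which was the lowest control for all 8 negative genes and had 0 counts of LOC111706182.

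The level of the genes high in females moved together with the 8 negative chaperones across male libraries, and its part in their values was tested no further than by leaving out the 4 male libraries. In male controls, replicate 1 was below replicates 2 and 3 for 8 of these 8 genes, for 0 of the 6 positive ones and for 1 of the 2 *hsp70* genes. The 8 and the 6 were sorted by the sign of a comparison with these same controls, so this split is in part built in. The share of all genes with such an order was not counted, and nothing is read from the place of the *hsp70* genes in it. Between the sexes at 0.5 µg/L, the 8 had log2 fold changes of 0.77 to 2.3 for females against males, of which 6 passed as higher in females, beside 20.7% of all genes. The 6 positive ones had values of -2.16 to -0.09, of which 3 passed as lower, beside 40.8%, and the sign of LOC111717007, the value nearest 0, turned with library totals (0.17). When the 4 male libraries were left out, the median of the 8 went from -1.4 to -0.38, with a range of -0.79 to 5.47. For LOC111707610, replicate 1 lay between replicates 2 and 3 in the male controls and above both in the males at 0.5 µg/L. It was at 27.3, 12.9, 16.1 and 8.1 CPM in the 4 male libraries, and at 17 and 33.6 CPM in replicate 1 of the controls and of 0.5 µg/L, as the plot of the male libraries shows. LOC111717003, which is not in that plot, was at 27.1, 16.3, 8.51 and 14 CPM in the 4 male libraries. In replicate 1 it was at 11.8 CPM, the lowest of the male controls, and at 29.2 CPM, the highest of the males at 0.5 µg/L. Without the 4 male libraries its difference between the sexes in controls went from -1.54 to -0.89. For LOC111707610 the difference between the sexes at 0.5 µg/L then went from -1.31 to -2.08, and that between males at 50 and 0.5 µg/L from 2.75 to 1.88. The part of the genes high in females in the values of the *hsp70* genes was not tested further.

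**Figure D5:**
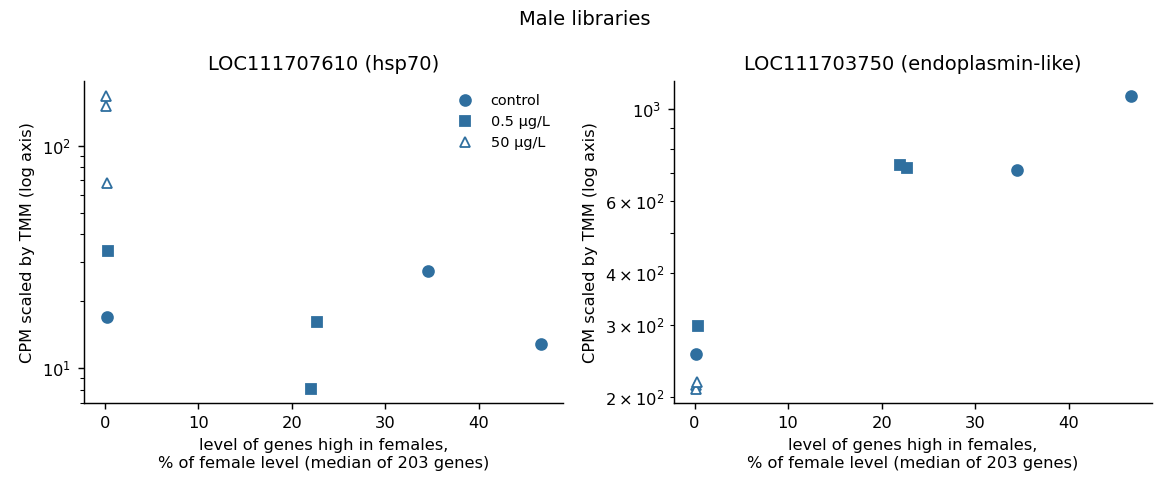
Level in the 9 male libraries (y axis, CPM scaled by TMM, log scale) of LOC111707610 (left) and endoplasmin-like LOC111703750 (right) against the level of 203 genes high in females, as the median percent of their level in females at 0.5 µg/L (x axis). Each mark is 1 library. Endoplasmin-like was at 210 to 298 CPM in the 5 libraries near 0% and at 713 to 1080 CPM in the other 4, whereas LOC111707610 ranged from 17 to 168 CPM near 0% and from 8.1 to 27.3 CPM in the other 4. All male libraries at 50 µg/L are among the 5 near 0%, so the ranges near 0% mix doses.

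At 0.5 µg/L 0 of the 14 chaperones passed in either sex, with 0 of 14 at an unadjusted p under 0.05 in each sex and 0 called by DESeq2 or the likelihood ratio test. The median log2 fold change was 0.08 in females and -0.26 in males, against 0.01 and 0 over all genes. Between the sexes in controls, 3 were higher in females and 3 lower, beside 11.6% and 34.5% of all genes, and at 0.5 µg/L 6 were higher and 3 lower, beside 20.7% and 40.8%. Without replicate 1 of the male controls, 3 in place of 6 passed in controls, beside 5911 in place of 8346 genes in all. Without the 4 male libraries 9 passed in controls and 11 in place of 9 at 0.5 µg/L, beside 11374 and 12146 genes in all.

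The genes most like each *hsp70* gene were sought by the Pearson r of log2 CPM, centred within each sex, over 18 libraries and 18109 other genes. For LOC111707610 these were LOC111717007 (r = 0.949), LOC111717003 (0.948), LOC111711805 (0.931), LOC111710895 (0.93) and LOC111698039 (0.919). For LOC111717003 they were LOC111707610 (0.948), LOC111711805 (0.919), LOC111698039 (0.915), LOC111710895 (0.898) and LOC111711903 (0.896). All but 3 of the genes named in these lists were thus of the heat shock 70 kDa protein 1-like name, and the libraries at 50 µg/L, which share a flow cell, weigh on every r. With each library left out in turn, 4 or 5 of the first 5 genes and 3 to 5 of the second remained.

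Among the others, LOC111698039 is annotated as amine oxidase [flavin-containing] B-like, a name given to enzymes that break down amines, and LOC111710895 and LOC111711903 are uncharacterized. LOC111698039 was at 213 ± 38.1 CPM in male controls, 235 ± 78.1 at 0.5 µg/L and 590 ± 76.5 at 50 µg/L (SD, n = 3), and at 77.8 ± 11.1, 75.8 ± 21.2 and 106 ± 7.83 CPM in females. LOC111711903 was at 30 ± 8.05, 35 ± 11 and 123 ± 29 CPM in males and at 11.1 ± 0.673, 13.4 ± 2.27 and 17.2 ± 1.13 CPM in females. LOC111710895 was at 59.8 ± 6.29, 67.2 ± 17.1 and 125 ± 20.1 CPM in males and at 53.3 ± 3.81, 59 ± 12.4 and 77 ± 4.04 CPM in females. As for the *hsp70* pair, their means were highest at 50 µg/L in each sex, and they were named for that likeness, so these levels are a description.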

How the data were processed

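The values used are read counts per gene that the authors deposited without normalization. The authors used Trimmomatic on single-end reads (Phred over 30, minimum 36 bp), then STAR with the Eaff_2.0 assembly, then featureCounts. Tool versions, strandedness and how reads matching several genes were handled were not stated. The file held 23728 genes in 18 columns, each matched to 1 library, with 0 columns left over.

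Genes were tested in R 4.3.3 with edgeR 4.0.16 (default filter on low counts, TMM factors, robust quasi-likelihood test) and, as an alternative, DESeq2 1.42.0. Doses were compared in a fit of the 9 libraries of a sex, and the sexes in a fit of all 18. Calls needed both a p of 0.05 or less after Benjamini-Hochberg adjustment over all genes of the fit and a change of 2-fold or more. Standard errors follow from the log2 fold change and the F statistic. The steps were tested on simulated counts, which held no flow cell effect. Changes were given only to genes above a low level, and a fixed number of genes was always changed. Of genes given a log2 change of 1.5, the quasi-likelihood test called 94% in females at 0.5 µg/L and 90% at 50 µg/L. In males it called 47% and 48%, so a change of that size would often be missed in males. In the real fit 1 gene passed in females at 50 µg/L, and the simulated shares may not hold for the real libraries of either sex. Likeness used a prior count of 2.

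The members and lists were chosen with earlier results of these data known. The genes described are both members, the genes of the same name, in each chaperone group up to 3 called genes and the one of highest level, and the 5 genes most like each member. Further chaperones are named to account for the list and were chosen after their values were seen. Gene names come from the study's lists of changed genes. Genes high in females were those of at least 20 CPM in each female library at 0.5 µg/L with a male library at 1% or less of their mean.

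Same-numbered male control and 0.5 µg/L replicates deviated together from their group means (r of 0.6, 0.27 and 0.36 for replicates 1, 2 and 3). Replicates 2 and 3 correlated about as much across numbers (0.28 and 0.32), so these values do not show a pairing by number. The main fits were unpaired, and the replicate number entered as a block only in an alternative. In no other pair of groups compared were all 3 same-number correlations over 0.1. No 2 libraries of a group were copies, with a chi-square per degree of freedom of at least 4.59. Alternatives were RLE factors, library totals, no filter, the likelihood ratio test, a replicate block, fewer libraries, a flow cell covariate and leaving out single libraries. Library totals and leaving out the 4 male libraries were added after seeing the data. The authors' own fold changes and p-values were not used.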

Additional observations from a re-analysis of the deposited data

How the results depend on the processing

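Of the 282 values of the 20 *hsp70* results under alternatives, 256 counted as the same, 19 changed sign, 6 lost a call and 1 moved by more than the spread between replicates. For tested results, the same meant an unchanged direction and side of the threshold. For results given without a test, it meant an unchanged direction and a shift smaller than the spread between replicates. All changes of sign were in results at 0.5 µg/L whose value was near 0 and that passed no test in any fit. For LOC111707610 in males at 0.5 µg/L the value was -0.03 with RLE factors, -0.06 with library totals and -0.02 with DESeq2. With the replicate number as a block it was -0.13 (adjusted p = 0.92), and the replicate block changed no other call of the *hsp70* genes. Without the 4 male libraries, LOC111717003 was at 1.33 in males at 0.5 µg/L, at 1.71 for 50 against 0.5 µg/L and at -0.89 between the sexes in controls, and the change at 0.5 µg/L in females minus that in males was -0.73 for LOC111707610 and -1.18 for LOC111717003.

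With single libraries left out, LOC111707610 ranged from 0.16 to 0.38 in females at 0.5 µg/L, from -0.68 to 0.39 in males, from -1.73 to -1.14 between the sexes in controls, from -1.67 to -0.62 at 0.5 µg/L, and from -0.16 to 0.89 in the difference of changes. LOC111717003 ranged from -0.24 to 0.31, from -0.73 to 0.24, from -1.77 to -1.13, from -1.7 to -0.7 and from -0.17 to 0.83 in the same order. At 50 µg/L against controls the ranges were 1.46 to 2.14 and 1.06 to 1.6 in females and 2.53 to 3.07 and 2.22 to 2.76 in males.

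Counts of genes called moved far more. At 50 µg/L in females (1 gene called) they were 0 with library totals, with the replicate block and with flow cell as a covariate, 3 with no filter, 33 with the compared groups alone, 143 with DESeq2, 133 with the likelihood ratio test and 0 to 72 with single libraries left out. In males (128 genes) they were 76 with library totals, 273 with no filter, 42 with the compared groups alone, 1668 with the replicate block, 1975 with DESeq2, 1576 with the likelihood ratio test, 472 without the 4 male libraries, 0 with flow cell and 0 to 4077 with single libraries left out. At 0.5 µg/L (0 genes) DESeq2 called 7 in females and 3 in males, the likelihood ratio test 5 and 7, the fit without the 4 libraries 6 in males, and single libraries left out gave 0 to 3 in females. For the difference of changes (0 genes) they were 38, 40, 3 and 0 to 9. Of the 14 chaperones at 50 µg/L, DESeq2 called 2 in females and 13 in males, the likelihood ratio test 1 and 11, the compared groups alone 1 in females, no filter 3, the replicate block 11, the fit without the 4 libraries 4 and the flow cell covariate 0 in males, and single libraries left out gave 0 to 13 in males and, between the sexes in controls, 3 to 8. The cause of these differences was not tested.

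Of 798 values of single list genes under alternatives, 22 changed sign, 12 of them with a single library left out, and none of these passed a test. With the range over single libraries left out in brackets, these were at 50 µg/L in females LOC111704938 (-0.21 to 1.21), LOC111705239 (-0.17 to 0.09), LOC111706182 (-0.11 to 0.26 with libraries left out, -0.02 with library totals and -0.2 with flow cell), LOC111707609 (0.32 with flow cell) and LOC111711631 (-0.06 to 0.34, and -0.12 with flow cell). In males they were LOC111706182 (5.47) and LOC111711631 (0.32) without the 4 libraries and LOC111707609 (0.8) with flow cell. Between the sexes they were LOC111712531 in controls (-0.11 to 0.67, and -0.19 without the 4 libraries) and at 0.5 µg/L (-1.21 to 0.27), and LOC111717007 at 0.5 µg/L (0.17 with library totals, 0.11 with the replicate block, -0.6 to 1.07 with libraries left out). With 3 pools a group and 3882407 to 17114866 counts a library, the intervals of the *hsp70* genes at 0.5 µg/L take in both the spread between pools and counting error. The part of each was not separated.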
